A study of Arabidopsis thaliana with 6 samples.

Results

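Expression of 9 MADS-box genes that regulate the onset of flowering was examined in RNA-seq libraries of Arabidopsis thaliana seedlings. The genes were chosen by locus identifier: FLC (AT5G10140), MAF1 (AT1G77080, also called FLM), MAF2 (AT5G65050), MAF3 (AT5G65060), MAF4 (AT5G65070), MAF5 (AT5G65080), SVP (AT2G22540), SOC1 (AT2G45660) and AGL24 (AT4G24540). All 9 were among the 26984 genes in the tables, and 6 of them were among the 17205 genes tested. The 6 libraries were 3 of wild type (Col_0, numbered 1 to 3) and 3 of the hy5-215 mutant (numbered 4 to 6). Every library came from whole seedlings, 7 days old, raised in short days, with RNA taken at zeitgeber time 20 h. HY5 encodes a bZIP transcription factor of light signalling, and the mutant is represented by 1 allele. How many seedlings made up a library is not given in the sources used here.

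MADS-box proteins of the MIKC type bind DNA as dimers and larger complexes at CArG boxes. In Arabidopsis, FLC, the MAF proteins and SVP act as brakes on flowering: SVP works in complexes with FLC or MAF1, and these keep the florigen gene FT and the integrator gene SOC1 low. SOC1 and AGL24 act in the opposite direction and promote the switch to flowering. FLC is silenced by prolonged cold (vernalization) and is kept down by the autonomous pathway, whereas FRIGIDA (FRI) and chromatin complexes that it recruits raise it. Col-0 carries a loss-of-function allele of FRI.

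The family relation is visible in the coding sequences. The first 90 coding bases, which encode the start of the DNA-binding MADS domain, are shown from the RefSeq TAIR10.1 annotation. Capitals mark bases that differ from FLC at the same position. For MAF5 the run starts at coding base 22, because its longest annotated reading frame begins 21 bases earlier.
FLC: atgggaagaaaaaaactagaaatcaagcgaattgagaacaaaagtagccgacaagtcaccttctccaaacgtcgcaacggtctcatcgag
MAF1: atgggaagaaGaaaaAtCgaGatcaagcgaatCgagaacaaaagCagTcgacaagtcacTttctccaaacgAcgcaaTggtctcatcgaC
MAF2: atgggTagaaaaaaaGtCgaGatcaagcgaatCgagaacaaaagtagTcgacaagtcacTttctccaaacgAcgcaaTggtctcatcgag
MAF3: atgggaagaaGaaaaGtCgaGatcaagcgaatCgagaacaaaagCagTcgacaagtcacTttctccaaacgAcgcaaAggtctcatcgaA
MAF4: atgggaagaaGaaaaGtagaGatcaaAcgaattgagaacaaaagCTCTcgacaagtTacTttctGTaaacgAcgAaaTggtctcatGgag
MAF5: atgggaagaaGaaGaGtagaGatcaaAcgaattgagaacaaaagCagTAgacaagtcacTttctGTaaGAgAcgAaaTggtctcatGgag
SVP: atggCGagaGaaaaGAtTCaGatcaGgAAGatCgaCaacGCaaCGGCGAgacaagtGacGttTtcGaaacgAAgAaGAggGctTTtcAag
SOC1: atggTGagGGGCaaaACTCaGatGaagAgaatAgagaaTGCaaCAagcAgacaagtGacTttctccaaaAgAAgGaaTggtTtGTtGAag
AGL24: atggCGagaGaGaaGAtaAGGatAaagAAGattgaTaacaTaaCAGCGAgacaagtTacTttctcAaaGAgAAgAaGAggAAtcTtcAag
MAF2 differed from FLC at 9 of these 90 bases, MAF1 and MAF3 at 11, MAF4 at 16 and MAF5 at 17. SOC1 differed at 32, and SVP and AGL24 at 35 each. At 40 of the 90 positions all 9 genes had the same base. MAF1 and MAF3 shared 87 of the 90 bases. Over whole transcripts, the longest identical run was 61 bases between MAF1 and MAF3, 59 between MAF2 and MAF3, 44 between MAF1 and MAF2 and 43 between MAF4 and MAF5. FLC shared at most 21 bases in a row with any MAF gene. How the authors assigned reads that match several genes is not given in the sources used here, so the division of signal among MAF1, MAF2 and MAF3, and between MAF4 and MAF5, is uncertain.

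The genes lie on 4 chromosomes (TAIR10.1 coordinates). FLC has 8 merged exons and spans bases 3173382 to 3179448 of chromosome 5 (minus strand), 413886 bases from HY5. MAF2 (25982254 to 25986435), MAF3 (25987309 to 25991412), MAF4 (25992193 to 25996202) and MAF5 (25997504 to 26002619) stand in tandem on the plus strand of the same chromosome. The 4 tandem genes span 20366 bases with gaps of 780 to 1301 bases. MAF1 is on chromosome 1 (28955483 to 28960234, plus strand) and SVP on chromosome 2 (9579647 to 9583901, plus strand). SOC1 is on chromosome 2 (18807505 to 18811125, minus strand) and AGL24 on chromosome 4 (12670897 to 12674106, minus strand). An antisense non-coding RNA gene, AT5G01675, covers the whole of FLC on the opposite strand. Whether the reads were counted by strand is not given here, so sense and antisense signal at FLC cannot be told apart.

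Values are FPKM, fragment numbers scaled to gene length and to the mapped fragments of the library, as deposited by the authors. They summed to 528554 to 556418 per library, and 16859 to 17123 genes reached 1 FPKM. Total read counts are not in these values, but steps among the lowest values put the depth of libraries 2 to 6 at 0.938 to 1.03 times that of wild type 1. HY5 itself checks the labels: it was 12.99 to 13.89 FPKM in wild type and 1.88 to 3.04 FPKM in hy5. Groups are given as mean ± SD with n = 3 libraries. Differences are log2 fold changes of FPKM + 1, hy5 over wild type, from limma fitted across all tested genes. The threshold was a Benjamini-Hochberg adjusted p of 0.05. The labels do not describe the libraries as separate plantings, so p-values measure only how these libraries vary, and part of that may be technical. In whole seedlings, fewer cells of a type and less RNA per cell cannot be told apart.

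SVP, the repressor that partners FLC and MAF1, was higher in hy5, and FLC was lower. Of the 6 members tested, 1 rose (SVP) and 1 fell (FLC). Of all genes tested, 22.8% passed the threshold, 11.7% higher in hy5 and 11.1% lower, and 2 of 6 (33.3%) is a count too small to stand apart from that background. The median log2 fold change of the 6 was -0.21, against -0.0009 for all tested genes. Of the 6 tested, SVP had every hy5 library above every wild-type library, as did 20.6% of all tested genes, and FLC had every hy5 library below, as did 19.5%. MAF4 (above) and AGL24 (below) also did not overlap between genotypes, but they were not tested and those shares do not cover genes below the filter.

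**Figure D1:**
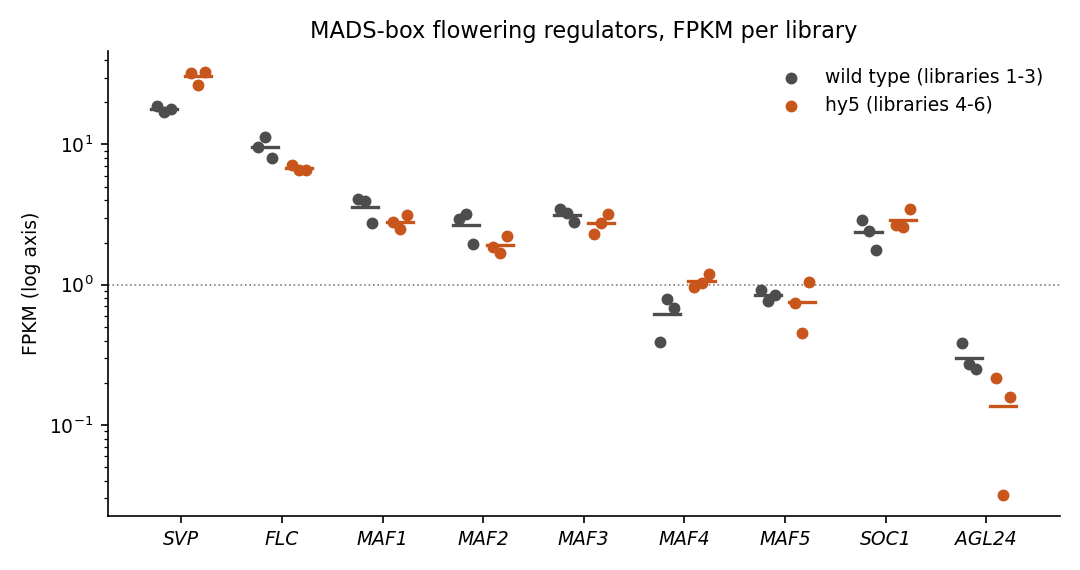
Expression of the 9 genes in each library. Points are FPKM on a log axis, short bars are group means, and the dotted line is 1 FPKM, the level used in the filter on low genes. SVP lies at 16.95 to 18.7 FPKM in wild type and 26.4 to 32.9 FPKM in hy5, and AGL24 reaches at most 0.384 FPKM.

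SVP was the most abundant of the 9 genes in either genotype. Its FPKM was 18.7, 16.95 and 17.9 in wild type 1, 2 and 3, and 32.3, 26.4 and 32.9 in hy5 4, 5 and 6. The hy5 libraries all stood above the wild-type libraries, with hy5 5 the lowest of the mutant. The mean went from 17.9 ± 0.883 to 30.5 ± 3.61 FPKM, a ratio of 1.71. The log2 fold change was 0.74 (SE 0.10, 95% interval 0.51 to 0.96, limma adjusted p = 0.00027). It passed under all 14 alternative settings, the 6 that leave out a library among them, with limma adjusted p from 0.00024 to 0.0026.

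SVP is expressed in leaves and in the shoot apex, and markers of the apex were measured beside it. Of 5 shoot apex markers, STM, a KNOX meristem gene, rose, with means of 3.18 ± 0.495 FPKM in wild type and 6.71 ± 1.09 in the mutant and a log2 difference of 0.88 (limma adjusted p = 0.00079). KNAT1 (13.7 ± 3.33 against 19.2 ± 3.37 FPKM) and KNAT2 (1.06 ± 0.0979 against 1.68 ± 0.117 FPKM) did not pass. KNAT1 passed under the 3 rescalings (limma adjusted p = 0.044 to 0.048), without wild type 2 (0.0075) and without hy5 5 (0.023), and KNAT2 passed with quantile normalization (0.049) and ordinary empirical Bayes (0.024). CLV3 and WUS, which mark the stem cell niche, stayed at or under 0.0957 FPKM. Of the 5, 3 were tested and 1 was called, a count too small to stand apart from all genes tested. Of all genes, 22.8% were called, 11.7% higher in hy5 and 11.1% lower. The 5 markers summed to 15.8 to 21.4 FPKM in wild type and 22.9 to 31.1 FPKM in hy5. Most of each sum was KNAT1, which did not pass and overlapped between genotypes (17.3 FPKM in wild type 2, 15.3 in hy5 5). Of 3 leaf markers (RBCS1A, LHCB1.1 and CA1), none passed by limma and 2 had an unadjusted p under 0.05, and of 2 phloem markers (SUC2 and AHA3) none passed and 0 had an unadjusted p under 0.05. Without hy5 5, RBCS1A (limma adjusted p = 0.033) and CA1 (0.014) passed as lower in hy5, and CA1 also with quantile normalization (0.04). The part of these markers in the SVP difference was not tested.

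FLC, the vernalization-responsive repressor, was the next most abundant. Its FPKM was 9.58, 11.3 and 7.96 in wild type 1, 2 and 3, and 7.18, 6.59 and 6.62 in hy5 4, 5 and 6. The groups did not overlap, but wild type 3 stood close to hy5 4. The mean went from 9.63 ± 1.69 to 6.80 ± 0.334 FPKM, a ratio of 0.706. The log2 fold change was -0.44 (SE 0.13, 95% interval -0.71 to -0.16, limma adjusted p = 0.027). The call rested on the full set of libraries: it did not survive leaving out wild type 1 (limma adjusted p = 0.067), wild type 2 (0.11), hy5 4 (0.059), hy5 5 (0.075) or hy5 6 (0.096), and survived leaving out wild type 3 (0.0065).

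**Figure D2:**
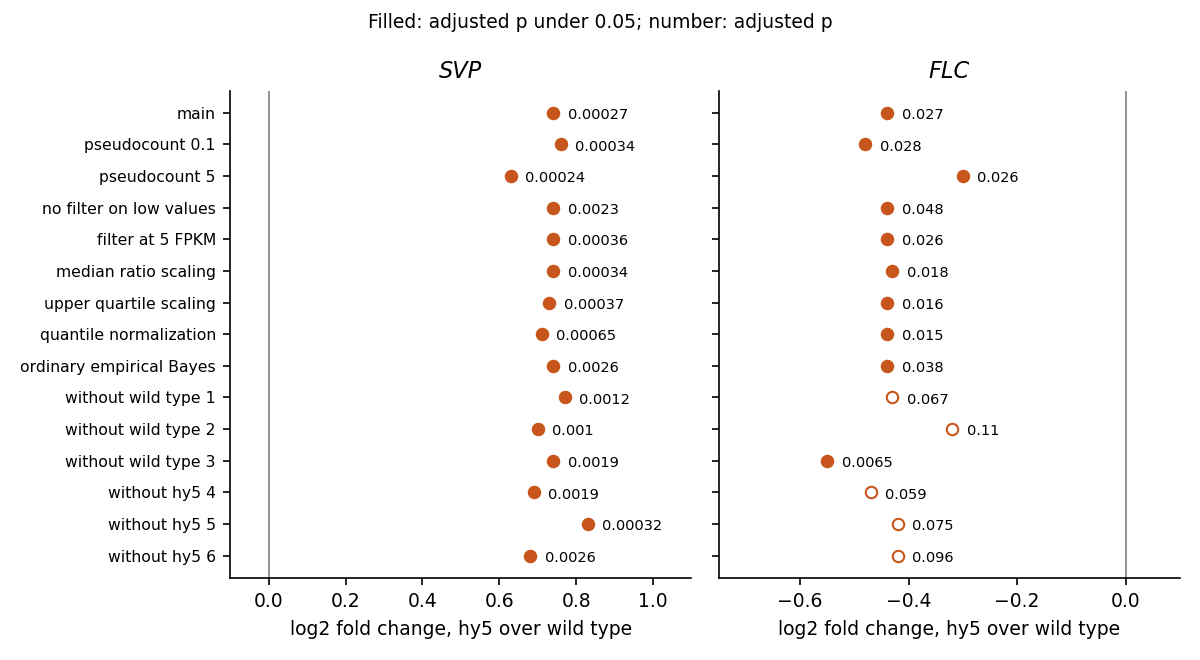
Log2 fold change of SVP (left) and FLC (right) under the reported setting, in the top row, and 14 alternatives. Filled points passed, and the limma adjusted p is printed beside each point. SVP passes in every row, and FLC misses in 5 of the 6 rows that leave out a library.

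Seed transcripts also differed between the genotypes. The storage and oil body genes SESA1, CRA1 and OLEO1 summed to 21.9 to 103.2 FPKM in wild type and 1.44 to 7.98 FPKM in hy5. SESA1 and OLEO1 passed. SESA1 was at 5.77, 30.9 and 13.25 FPKM in wild type and at 0.261, 0.0422 and 0 in hy5. It met the filter only through the group where it was higher, so its call as lower is no separate support. With any wild-type library left out, SESA1 was below the filter and not tested. The SESA1 call was lost with a pseudocount of 5 (limma adjusted p = 0.062) and without hy5 4 (0.075) or hy5 6 (0.084). The OLEO1 call was lost with a pseudocount of 0.1 (0.07) or 5 (0.084) and without hy5 4 (0.051), hy5 5 (0.093) or hy5 6 (0.19). CRA1 passed with no filter (0.048), quantile normalization (0.049), ordinary empirical Bayes (0.0045) and without wild type 1 (0.05). Wild type 2 was the highest library for the seed genes and for FLC, while wild type 1 was the lowest wild-type library for the seed genes and wild type 3 for FLC. The part of seed transcripts in the FLC difference was not tested. Of 7 root markers, SHR rose and 3 others were tested without passing. Calls of 2 among 3 seed genes and 1 among 4 root markers are too few to stand apart from the background. That background was 22.8% of all genes called, 11.7% higher and 11.1% lower. The SHR call (limma adjusted p = 0.042) was lost with upper quartile scaling (0.051), with ordinary empirical Bayes (0.061) and without any single library other than wild type 3 (0.092 to 0.15). COBL9 passed as lower without wild type 2 (0.039).

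**Figure D3:**
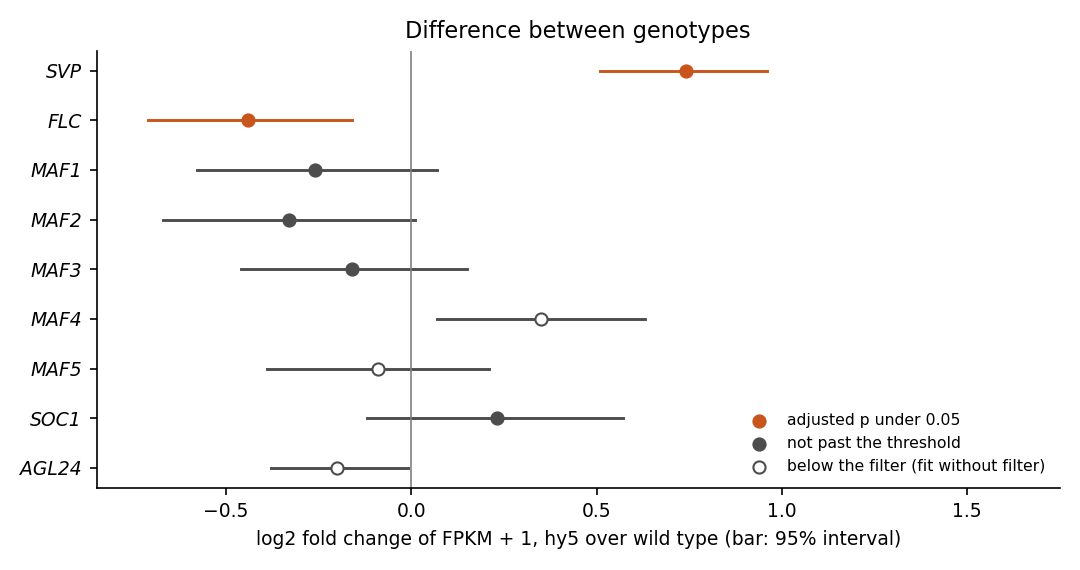
Difference between hy5 and wild type for each gene. The horizontal axis is the log2 fold change of FPKM + 1 with its 95% interval, and open circles are genes below the filter, taken from the fit with no filter. SVP lies at 0.74 and FLC at -0.44, and the intervals of MAF1, MAF2, MAF3, MAF5 and SOC1 include 0. Adding 1 to FPKM shrinks the differences of the low genes, most of all those below the filter.

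MAF1, whose splicing responds to ambient temperature, did not pass. Its FPKM was 4.08, 3.98 and 2.75 in wild type and 2.81, 2.51 and 3.12 in hy5. Wild type 3 lay inside the range of the mutant libraries. The log2 fold change was -0.26 (SE 0.15, 95% interval -0.58 to 0.07, limma adjusted p = 0.24). Without wild type 3 it was -0.40 and passed (limma adjusted p = 0.044).

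MAF2, which holds back the response to short cold spells, showed a like pattern. Its FPKM was 2.92, 3.17 and 1.96 in wild type and 1.86, 1.68 and 2.21 in hy5, and again wild type 3 lay within the mutant range. The log2 fold change was -0.33 (SE 0.16, 95% interval -0.67 to 0.01, limma adjusted p = 0.16), and without wild type 3 it was -0.48 (limma adjusted p = 0.031). MAF3, a further repressor of the group, had FPKM values of 3.45, 3.24 and 2.80 in wild type and of 2.29, 2.76 and 3.17 in hy5. These ranges overlapped, and the log2 fold change was -0.16 (SE 0.14, 95% interval -0.46 to 0.15, limma adjusted p = 0.45). For these 3 MAF genes the intervals still include falls as large as that of FLC.

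MAF4, also a repressor of flowering, was below the filter of 1 FPKM in at least 3 libraries. Its FPKM was 0.390, 0.790 and 0.684 in wild type and 0.960, 1.02 and 1.19 in hy5. All mutant libraries stood above all wild-type libraries, opposite to the direction seen for FLC. An exact two-sided permutation test over the 6 libraries gave p = 0.1, the smallest p that 3 libraries against 3 allow. The mean went from 0.621 ± 0.207 to 1.06 ± 0.118 FPKM, a ratio of 1.7. In the fit with no filter its log2 fold change was 0.35 (SE 0.12, limma adjusted p = 0.087). Adding 1 to FPKM shrinks the difference at so low a level, so 0.35 is not on a par with the 0.74 of SVP.

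MAF5, which is induced rather than silenced by vernalization, was also below the filter. Its FPKM was 0.916, 0.768 and 0.851 in wild type and 0.746, 0.453 and 1.05 in hy5. The mutant libraries spread on either side of the wild type (exact two-sided permutation p = 0.7). In the fit with no filter the log2 fold change was -0.09 (SE 0.13, limma adjusted p = 0.7).

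SOC1, the flowering promoter that FLC and SVP repress, did not pass. Its FPKM was 2.90, 2.41 and 1.78 in wild type and 2.69, 2.58 and 3.48 in hy5. The 2 groups overlapped, with wild type 3 the lowest library and hy5 6 the highest. The log2 fold change was 0.23 (SE 0.16, 95% interval -0.12 to 0.57, limma adjusted p = 0.33). The interval includes no change and a rise of up to 0.57.

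AGL24, a promoter of flowering and close relative of SVP, was the lowest of the 9. Its FPKM was 0.384, 0.271 and 0.249 in wild type and 0.218, 0.0319 and 0.157 in hy5. All mutant libraries were below all wild-type libraries, and hy5 5 was far the lowest (exact two-sided permutation p = 0.1, the smallest possible). After division by each library's step size the values were within 0.7% of 12, 8, 8, 7, 1 and 5 times the hy5 5 value, in the order of the libraries. If the hy5 5 value is a single fragment, the gene rests on a handful of fragments per library. The ratio of the mean FPKM values was 0.451. In the fit with no filter the log2 fold change was -0.20 (SE 0.08, limma adjusted p = 0.14), again shrunk by adding 1 to FPKM.

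In the order of mean levels SVP, FLC and AGL24 kept their places in the 2 genotypes, and the genes between FLC and AGL24 changed theirs. In wild type the means ran from SVP (17.9 FPKM) through FLC (9.63), MAF1 (3.60), MAF3 (3.17), MAF2 (2.69), SOC1 (2.36), MAF5 (0.845) and MAF4 (0.621) to AGL24 (0.301). Libraries of neighbouring genes overlapped from MAF1 down to SOC1 and between MAF5 and MAF4, and were apart elsewhere. In hy5, SOC1 (2.91 FPKM) took the place after FLC and overlapped MAF1 (2.82), MAF1 overlapped MAF3 (2.74), MAF2 (1.92) stood apart below these, and MAF4 (1.06) stood above MAF5 (0.751), again with overlap. FPKM depends on the length assigned to a gene, which is not given here. MAF1 has 11 annotated coding transcripts whose merged exons cover 4480 bases, against 672 bases for its longest coding sequence, so its place in this order depends on that length.

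The same libraries were often the extremes of their genotype. In wild type, library 3 was the lowest for 6 of the 9 genes and the highest for 0. In the mutant, hy5 5 was the lowest for 7 and hy5 6 the highest for 7. Within the tandem group the 4 genes summed to 7.68, 7.97 and 6.30 FPKM in wild type and 5.86, 5.91 and 7.62 FPKM in hy5, which overlap.

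Relative levels within a library separated the genotypes for some pairs. The ratio of SVP to FLC was 1.95, 1.5 and 2.25 in wild type and 4.5, 4 and 4.97 in hy5. SVP over the sum of FLC and MAF1 to MAF5 was 0.877, 0.728 and 1.06 in wild type and 2.04, 1.76 and 1.90 in hy5. These ratios combine the SVP and FLC differences given above and are not independent of them. The sum of the 6 repressors itself was 21.3, 23.3 and 17 FPKM in wild type and 15.9, 15 and 17.4 FPKM in hy5, and wild type 3 lay below hy5 6. FLC made up 46.8 ± 1.90% of that sum in wild type and 42.4 ± 3.8% in hy5. MAF4 made up 5.07, 9.91 and 10.9% of the tandem group in wild type and 16.4, 17.3 and 15.6% in hy5, with no overlap.

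**Figure D4:**
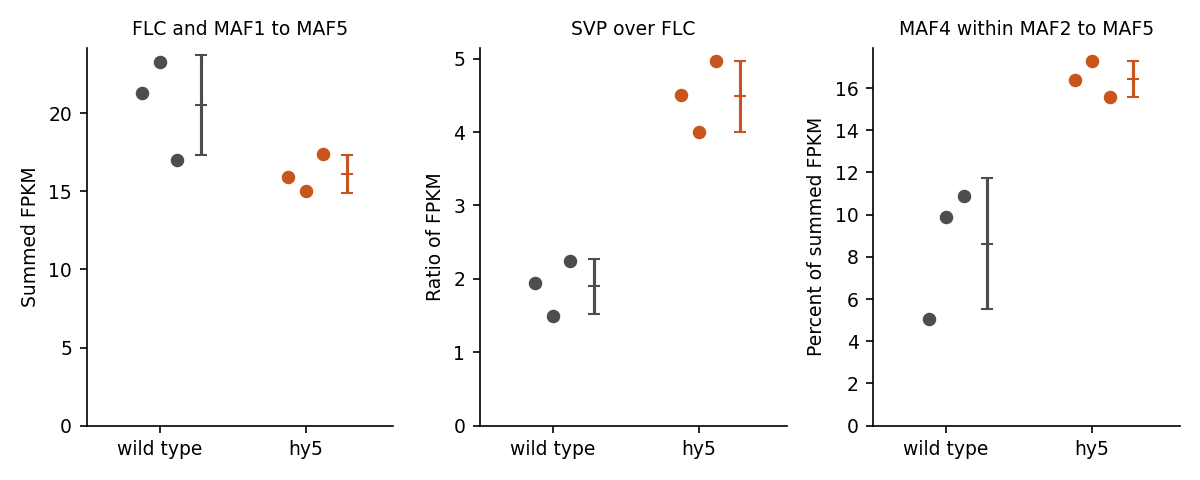
Sums and ratios of FPKM in each library, with mean and SD of 3 libraries beside the points. The left panel is the summed FPKM of FLC and MAF1 to MAF5, the middle panel the ratio of SVP to FLC, and the right panel the percent of the MAF2 to MAF5 sum that is MAF4. The SVP to FLC ratio is 1.5 to 2.25 in wild type and 4 to 4.97 in hy5.

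The stretches upstream of the genes that passed are shown because HY5 is known to bind ACGT-containing elements, among them the G-box CACGTG. Each is the 300 bases before the annotated gene start, read 5′ to 3′ on the gene's strand in TAIR10.1, with ACGT and CACGTG in capitals. FLC is at chr5:3179449-3179748, minus strand, and SVP at chr2:9579347-9579646, plus strand.
FLC: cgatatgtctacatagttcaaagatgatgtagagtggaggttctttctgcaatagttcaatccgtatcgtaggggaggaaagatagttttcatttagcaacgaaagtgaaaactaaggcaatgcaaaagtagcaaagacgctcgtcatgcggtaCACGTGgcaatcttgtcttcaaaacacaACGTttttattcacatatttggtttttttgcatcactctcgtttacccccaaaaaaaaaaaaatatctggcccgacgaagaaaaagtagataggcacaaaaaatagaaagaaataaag
SVP: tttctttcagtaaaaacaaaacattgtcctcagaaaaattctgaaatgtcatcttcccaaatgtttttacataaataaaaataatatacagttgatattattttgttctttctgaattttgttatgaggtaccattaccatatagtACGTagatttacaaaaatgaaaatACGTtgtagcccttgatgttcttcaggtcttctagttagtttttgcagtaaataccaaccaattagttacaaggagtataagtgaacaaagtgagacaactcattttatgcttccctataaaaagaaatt
The FLC window held 1 CACGTG, starting at position -146 from the gene start, and a further ACGT at -118. The SVP window held 2 ACGT, at -154 and -130, and no CACGTG. Both strands were searched, and the ACGT inside CACGTG counts towards ACGT. FLC was the 1 member of 9 with CACGTG, and MAF1, MAF4 and MAF5 also held ACGT. Of 26978 windows of this length in the tables' genes, 7.08% held CACGTG and 48.9% held ACGT. A CArG box was in none of the 9 windows and in 2.89% of all. A match describes the letters in the window and is not a measured binding site.

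Genes next to FLC and to the tandem cluster were compared as a local reference. Of the 4 neighbours of FLC, AT5G10130 fell, with means of 5.44 ± 1.82 FPKM in wild type and 1.61 ± 0.505 in the mutant and a log2 difference of -1.28 ± 0.21 (SE, limma adjusted p = 0.0012). AT5G10120, AT5G10150 and AT5G10160 did not pass (limma adjusted p = 0.32, 0.094 and 0.16). Beside the MAF2 to MAF5 cluster, the annexin gene ANNAT2 (AT5G65020) rose from 24.8 ± 3.75 to 40.7 ± 0.634 FPKM (limma adjusted p = 0.00047) and AT5G65030 did not pass (0.72). BST1 (AT5G65090) and AT5G65100 on the other side were below the filter. AT5G65100 was at 0.315 ± 0.0685 against 0.643 ± 0.141 FPKM and passed in the fit with no filter (limma adjusted p = 0.046). Of all genes tested, 22.8% passed (11.7% higher, 11.1% lower), and these neighbours are too few to stand apart from that share.

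Factors that raise FLC were called, counting both directions, at a share near that of all genes, but all their calls were lower. Of 24 tested genes of FRI, PAF1, histone methylation, histone H2B ubiquitination and SWR1 complexes, 5 fell and 0 rose, and 8 had an unadjusted p under 0.05. This is 20.8% called, against 22.8% of all genes (11.7% higher, 11.1% lower), with a median log2 fold change of -0.09. The share called lower was above the 11.1% of all genes, but 5 of 24 is too small a count to stand apart. Every hy5 library stood above every wild-type library for 3 of the 24 (FRI, VIP4 and VIP5) and below for 7. All tested genes did so at 20.6% and 19.5%. ATX2, a histone H3 methyltransferase gene, fell, with means of 11.3 ± 1.67 FPKM in wild type and 5.53 ± 0.348 in the mutant and a log2 difference of -0.91 ± 0.12 (SE, limma adjusted p = 0.00023). SUF4, a zinc-finger partner of FRI that binds FLC, fell, with means of 21.9 ± 3.96 FPKM in wild type and 13.1 ± 1.66 in the mutant and a log2 difference of -0.69 ± 0.13 (SE, limma adjusted p = 0.0021). ARP6, a subunit of the complex that deposits histone H2A.Z, fell from 26.1 ± 4.28 to 18.1 ± 0.387 FPKM, and ELF7 of the PAF1 complex from 15.0 ± 1.25 to 11 ± 0.485 FPKM (limma adjusted p = 0.0075 and 0.012). ATX1 fell from 2.63 ± 0.467 to 1.57 ± 0.165 FPKM (limma adjusted p = 0.027), and no longer passed when any single library other than wild type 3 was left out (0.059 to 0.12). FRI averaged 4.13 ± 0.373 FPKM in wild type and 5.11 ± 0.475 FPKM in hy5 and did not pass (limma adjusted p = 0.17). VIP5 of the PAF1 complex passed as higher under median ratio scaling (0.042), and ATXR7 as lower without wild type 3 (0.035).

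The autonomous pathway lowers FLC. Of 15 tested genes of it, 2 fell, 0 rose and 4 had an unadjusted p under 0.05 by limma, with a median of -0.14. This is 13.3% called, all lower, against 22.8% of all genes called and 11.1% called lower. A count of 2 of 15 is too small to stand apart from either share. FCA, which acts in processing of the FLC antisense RNA, fell, with means of 8.39 ± 0.614 FPKM in wild type and 3.98 ± 0.634 in the mutant and a log2 difference of -0.92 ± 0.13 (SE, limma adjusted p = 0.00029). Its 3 mutant libraries (4.57, 3.31 and 4.05 FPKM) all lay below its wild-type libraries (7.82, 9.04 and 8.29 FPKM). PRP39, a splicing factor gene, fell from 26.6 ± 3.10 to 18.5 ± 1.12 FPKM (limma adjusted p = 0.0042). The 13 others did not pass, FLD among them (limma adjusted p = 0.06), and FLD passed under each of the 3 rescalings (0.034 to 0.04), with ordinary empirical Bayes (0.044) and without wild type 3 (0.023).

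Vernalization and Polycomb genes, most of which keep FLC silent, gave 0 calls among 14 tested by limma. Of all genes tested, 22.8% passed, 11.7% higher in hy5 and 11.1% lower. In the list, 4 had an unadjusted p under 0.05 by limma. The 14 had a median of -0.01. VIN3, which is induced by cold, was listed at 0 in 5 libraries and at 0.0347 FPKM in the sixth, hy5 6. CLF (8.66 ± 1.35 against 6.45 ± 0.332 FPKM) missed the threshold at a limma adjusted p of 0.054. It passed under the 3 rescalings (0.032 to 0.038) and without wild type 3 (0.0085). EMF1 also passed under median ratio scaling (0.049), quantile normalization (0.043) and without wild type 1 (0.045), VEL1 without wild type 1 (0.046) and FIE without hy5 5 (0.037). FLD and these 4 were named after their values were seen.

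Of 8 tested floral repressors of the AP2 and TEM families, 2 fell and 1 rose, with a median of -0.12. This is 37.5% called, against 22.8% of all genes (11.7% higher, 11.1% lower), and 3 of 8 is too small a count to stand apart. SNZ fell, with means of 8.44 ± 2.08 FPKM in wild type and 4.63 ± 0.817 in the mutant and a log2 difference of -0.73 ± 0.16 (SE, limma adjusted p = 0.0062), and so did TOE2, with means of 11.4 ± 1.92 and 6.69 ± 0.410 FPKM and a log2 difference of -0.68 ± 0.13 (SE, limma adjusted p = 0.0021). AP2, a floral repressor that also specifies flower organs, rose from 7.44 ± 0.955 to 10.2 ± 0.887 FPKM (limma adjusted p = 0.027). AP2 no longer passed when wild type 2 (0.1), hy5 4 (0.12) or hy5 6 (0.11) was left out. TEM1, which represses FT, did not pass (26.4 ± 2.82 against 33.4 ± 5.37 FPKM), and it passed without hy5 5 (limma adjusted p = 0.019), as did TEM2 (0.036).

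SPL genes promote flowering with age. Of 8 listed, 4 were tested and 3 of these were called (75%), against 22.8% of all genes (11.7% higher, 11.1% lower), a count too small to stand apart. SPL3 rose from 4.28 ± 0.374 to 6.56 ± 1.34 FPKM (limma adjusted p = 0.025), while SPL11 fell from 2.82 ± 0.431 to 1.54 ± 0.363 FPKM (0.013) and SPL2 from 6.09 ± 0.610 to 4.33 ± 0.473 FPKM (0.035). The SPL3 call was lost without wild type 1, wild type 3, hy5 4 or hy5 6 (0.055 to 0.13). The SPL11 call was lost without hy5 4 (0.058) or hy5 6 (0.073), and that of SPL2 without any single library other than wild type 3 (0.068 to 0.12). SPL15, below the filter, had FPKM values of 0.720, 0.897 and 1.02 in wild type and of 0.262, 0.444 and 0.381 in hy5, without overlap. The fit with no filter gave it a log2 fold change of -0.46 (limma adjusted p = 0.016), and the exact two-sided permutation p was 0.1, the smallest possible.

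Genes downstream of the 9 regulators were mostly at or near 0. FT and CAL were listed at 0 in all 6 libraries, TSF was listed at 0 in 5, and LFY, AP1 and FUL did not reach 0.2 FPKM. Of 11 integrator and meristem identity genes, 3 were tested and ATC rose, with means of 13.8 ± 3.45 FPKM in wild type and 23.1 ± 2.81 in the mutant and a log2 difference of 0.73 ± 0.16 (SE, limma adjusted p = 0.0068). ATC encodes a relative of TFL1 that inhibits flowering. FD (1.38 ± 0.534 against 2.02 ± 0.580 FPKM), the bZIP partner of FT, and FDP did not pass. That is 33.3% called, against 22.8% of all genes (11.7% higher, 11.1% lower), and 1 of 3 is too small a count to stand apart.

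Other MIKC-type MADS genes were mostly absent from the tested set. Of 27, only AGL12, AGL15, AGL16, AGL18 and SEP4 were tested, and 21 stayed under 1 FPKM in all 6 libraries. AGL12, known for its role in roots, rose from 2.30 ± 0.472 to 3.70 ± 0.565 FPKM (limma adjusted p = 0.027). It no longer passed when wild type 2 (0.1), hy5 4 (0.13) or hy5 5 (0.077) was left out. That is 20% called, against 22.8% of all genes and 33.3% of the 6 regulators tested, and with counts this small these shares are a description. AGL14, a close relative of SOC1, was below the filter at 0.305 ± 0.170 against 0.603 ± 0.154 FPKM.

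**Figure D5:**
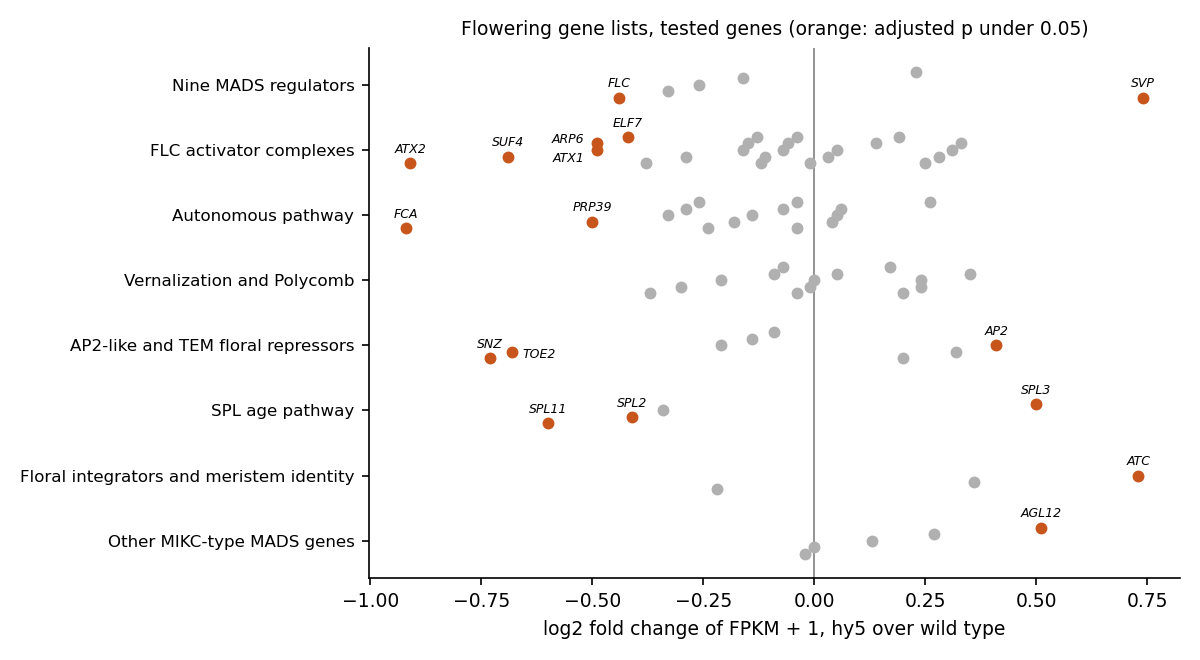
Tested genes of 8 flowering gene lists. The horizontal axis is the log2 fold change of FPKM + 1, hy5 over wild type, and orange points passed a limma adjusted p of 0.05. ATX2 at -0.91 and FCA at -0.92 are the lowest, and SVP at 0.74 and ATC at 0.73 the highest.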

How the data were processed

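The authors deposited 1 table of FPKM values for each library, per the file headers. Tools listed in the submitters' processing notes, with no roles, are Cufflinks, DESeq 1.18.0, TopHat, Bowtie2, HISAT2 2.2.1.0 and Trimmomatic 0.36, with the TAIR10 build. The sources used here do not give the annotation or the treatment of strand and of reads that match several genes. Sample titles gave the groups and library numbers. No library repeated another.

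A gene was tested where 3 or more libraries had 1 FPKM or more. Values were compared as log2(FPKM + 1) with limma 3.58.1 in R 4.3.3 (genotype only, trended and robust empirical Bayes), and p-values were adjusted over 17205 genes. This scale understates changes of low genes. The code was tested on simulated data. Members below the filter had an exact permutation test (Python 3.11.15, NumPy 2.4.6). Names, coordinates and sequences came from RefSeq TAIR10.1, which matched all 26984 genes by locus tag. Relative depth was taken from ratios to wild type 1 among genes up to 0.15 FPKM.

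The members and the 12 other gene lists (7 of flowering genes, 5 of tissue markers) were chosen with earlier results of these data known. Named genes were the 9 members, list genes past the threshold, 2 neighbours on each side of FLC and of the MAF cluster, HY5, and the 2 genes with the profile most like each called member; the others named complete a small count or change call under an alternative, and were chosen after their values were seen. HUA2 was not analysed here. Alternatives were other pseudocounts and filters, 3 rescalings, ordinary empirical Bayes, leaving out each library and, added later, a block by the number in the table names. Figures were drawn with matplotlib 3.10.9.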

Additional observations from a re-analysis of the deposited data

How the results depend on the processing

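Each tested member's log2 fold change was recomputed under up to 14 alternatives, 80 values in all, since MAF1, MAF2, MAF3 and SOC1 are not in the fit with a filter at 5 FPKM. The direction reversed in 0, and 73 stayed on their side of the threshold. The other 7 all came from leaving out a library: FLC lost its call in 5, and MAF1 and MAF2 passed in 1 each. With a library left out, the number of members called lower ranged from 0 to 3, against 1 with all libraries, and the number called higher stayed at 1. Over all genes, calls then ranged from 952 to 2059 higher and from 1076 to 2250 lower, against 2010 and 1905. Rescaling moved the median of all genes by at most 0.01 on the log2 scale. AGL24, MAF4 and MAF5 are below the filter, and the number of fragments behind them was not measured. The sample titles share no replicate number between genotypes, but the names of the deposited tables number each genotype 1 to 3. A fit with that number as a replicate block, chosen after seeing the data, called 2276 genes higher and 2138 lower and changed no call among the members (limma adjusted p = 4.7e-06 for SVP and 0.016 for FLC). Among list genes it added CLF, TEM1, RBCS1A and CA1 and lost SHR, SESA1 and OLEO1. Deviations from the group means correlated at 0.03 to 0.05 between same-numbered libraries over 17205 genes, and at -0.04 to 0.01 between the others. Each library correlated best with its own number, but correlations this small do not settle whether the libraries were paired.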

Other observations

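The genes whose profile over the 6 libraries was most like that of each called member were found by the root-mean-square difference of standardized log2 levels, a description in which the genotype difference weighs most. For SVP they were ERD7 (difference 0.0462), a dehydration-responsive gene, at 19.7 ± 1.09 FPKM in the wild type against 32.8 ± 3.94 FPKM in the mutant, and AT1G47271 (0.0511), at 0.931 ± 0.0968 against 2.79 ± 0.472 FPKM. A difference under 0.2 from SVP was found for 176 genes. For FLC they were AT2G48160 (0.0811), at 18.3 ± 1.59 against 15.4 ± 0.4 FPKM, and AT5G08540 (0.0888), at 41.5 ± 2.68 against 37.4 ± 0.584 FPKM. A difference under 0.2 from FLC was found for 85 genes.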
